A study of Mus musculus with 5 samples.

Results

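The 9 genes described here mark resting, recirculating regulatory T (Treg) cells: the transcription factor genes Klf2, Foxo1, Tcf7, Lef1, Satb1 and Bach2, and the receptor genes S1pr1, Ccr7 and Il7r. These 9 genes were chosen by name, and all 9 were among the 12947 genes that held a peak of RNA polymerase II (Pol II). Their regions were the 175 merged peaks, of 56615 in all, whose midpoint lay in the body of one of the genes or up to 3 kb before its start in the mouse build GRCm38/mm10. None of the 175 peaks fell to another protein-coding gene by the same rule (0 shared peaks).

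Pol II was mapped by CUT&Tag, in which an antibody on chromatin directs a transposase to cut nearby DNA, in nuclei of Treg cells (CD3+CD4+YFP+) sorted from spleen. All mice were C57BL/6, 8 weeks old, of both sexes pooled, carried Foxp3Cre, a Cre-YFP fusion made where Foxp3 is active, and were given IL-2c, a complex of 1 µg IL-2 with 5 µg anti-IL-2 that expands Treg cells, for 3 days, and were analysed 48 hours after the last dose. The control mice (Ctrl) had 1 floxed and 1 intact copy of Setd2, the histone H3 lysine methyltransferase that marks transcribed gene bodies, and the knockout mice (KO) had both copies floxed, so that deletion was limited to cells that had made Foxp3. Each group had 2 libraries of 80000 nuclei, with spleen cells of 2 mice pooled before the sort. The study counts each library as 1 biological replicate, but does not state whether those of a genotype came from separate pools, so the spread between them may be technical and may leave out variation between mice.

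Treg cells leave the thymus as central cells that circulate between blood and lymphoid organs, and part of them convert on activation to effector cells that enter tissues. In resting T cells Foxo1 stays in the nucleus and sustains Klf2, Ccr7 and Il7r, while antigen and IL-2 signals through PI3K and AKT move it out. Klf2 in turn sustains S1pr1, the receptor for the lipid that draws cells out of lymphoid organs, and Tcf7, Lef1, Satb1 and Bach2 hold cells in a less differentiated state.

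Pol II was summed over the peaks of each gene, and none of the 9 sums differed between KO and Ctrl Treg cells once p was adjusted over all genes. For 7 genes the KO sum was between 94.9% and 102% of the Ctrl sum. The Satb1 sum in KO was 81.8% of Ctrl, with a 95% interval from 67.7% to 99%, and the Ccr7 sum was 84.7%, with an interval from 70.8% to 101%. No member passed an adjusted p of 0.05 (0 of 9 genes by DESeq2, beside 0.100% of all genes, and 0 by edgeR, which passed 0 of all genes). At an unadjusted p under 0.05, 1 of 9 gene sums passed by DESeq2, that of Satb1, beside 2.88% of all genes, and 2 passed by edgeR, those of Satb1 and Ccr7, beside 4.84% of all genes. None of the 9 sums was higher in both KO than in both Ctrl libraries (0 genes, beside 17.4% of all genes). In 3 sums both KO values were under both Ctrl values, those of Klf2, Ccr7 and Satb1, beside 16.9% of all genes. Every adjusted p of the 9 sums was 0.9998 by DESeq2. The median log2 fold change, KO over Ctrl, was -0.06 over the 9 sums and 0.00 over all genes, and 2 of 9 lay above 0 beside 49.2% of all genes.

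**Figure D1:**
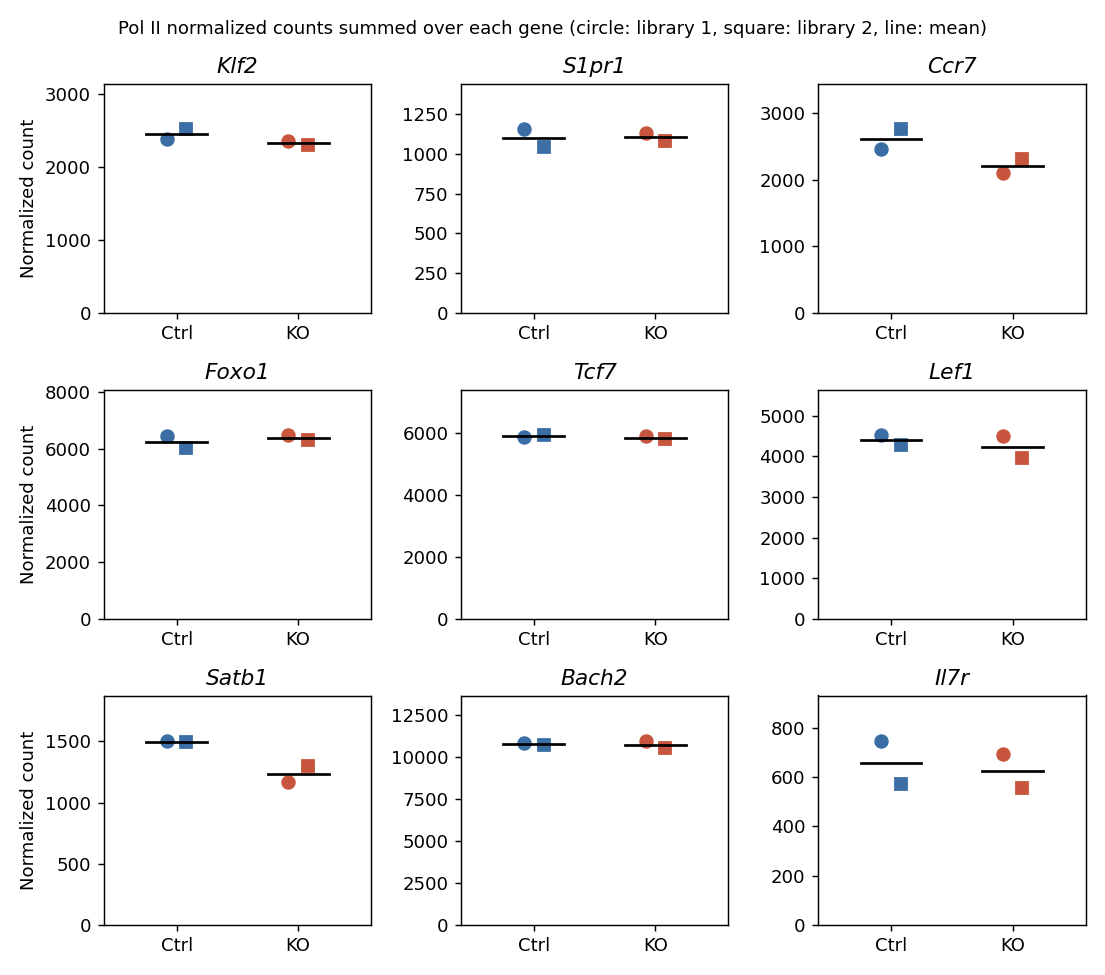
Normalized Pol II count (y axis, from 0) summed over the peaks of each of the 9 genes in the 2 Ctrl and 2 KO libraries. Circles are library 1, squares library 2, and lines group means. Both KO points lie below both Ctrl points for Klf2, Ccr7 and Satb1, and the groups overlap for the other 6 genes.

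Total counts were 4489646 to 13351007 per library, a range of 2.97 times, with the library numbered 1 the deeper in both groups. The member peaks held 0.439% to 0.452% of each total, with a median of 46 to 125 reads per peak. All 6 Treg and T cell markers fixed for the sort (Foxp3, Il2ra, Ctla4, Ikzf2, Cd3e, Cd4) held peaks. Of the markers of other cells, Cd79a, of B cells, held 67.3 to 123 normalized counts and Cd14, of myeloid cells, held 41.3 to 118. Ms4a1, Pax5, Lyz2, Csf1r, Itgam, Cd8a, Cd8b1, Ncr1, Klrb1c and Hba-a1 had no peak, and the part of other cells in the results was not tested. The Setd2 sum was 512.3 and 517.9 in Ctrl against 455.2 and 569.5 in KO. Which Setd2 exons were floxed is not given in the sources used here, so these values do not check the labels. Fewer cells of a kind and less Pol II per cell cannot be told apart in such bulk nuclei.

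The sequences shown are the promoter stretches before the RefSeq starts of Klf2, the most densely occupied of the 9 genes, and of Satb1, with the lowest fold change, together with the centres of the peaks with the smallest p in Satb1, Ccr7 and Lef1. All are read 5′ to 3′ on the strand of the gene, in lower case, and capitals mark the motifs searched. The Klf2 stretch was chr8:72318812-72319061 on the plus strand of RefSeq GRCm38.p6, reached just past the GENCODE start, lay within the Klf2 peak and held 1 KLF motif.
Klf2 promoter: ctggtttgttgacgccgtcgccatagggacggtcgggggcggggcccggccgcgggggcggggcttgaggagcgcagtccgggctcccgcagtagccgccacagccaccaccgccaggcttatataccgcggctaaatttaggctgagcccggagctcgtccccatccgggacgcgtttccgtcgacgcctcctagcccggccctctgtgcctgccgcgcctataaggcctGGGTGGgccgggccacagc
The Satb1 stretch was chr17:51832648-51832897 on the minus strand, had a GC content of 80.8%, held none of the motifs and was overlapped by no peak of Satb1, although it lies within the annotated gene, past its outermost start.
Satb1 promoter: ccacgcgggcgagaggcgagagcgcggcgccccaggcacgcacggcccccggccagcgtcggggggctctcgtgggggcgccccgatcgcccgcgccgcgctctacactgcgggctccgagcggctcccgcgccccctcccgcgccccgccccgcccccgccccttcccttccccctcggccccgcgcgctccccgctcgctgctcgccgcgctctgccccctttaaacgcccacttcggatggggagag
The Satb1 peak centre was chr17:51831233-51831532 on the minus strand of GRCm38.p6, lay in an intron with no annotated Satb1 exon under it (0 exons) and held 1 ETS motif.
Satb1 peak centre: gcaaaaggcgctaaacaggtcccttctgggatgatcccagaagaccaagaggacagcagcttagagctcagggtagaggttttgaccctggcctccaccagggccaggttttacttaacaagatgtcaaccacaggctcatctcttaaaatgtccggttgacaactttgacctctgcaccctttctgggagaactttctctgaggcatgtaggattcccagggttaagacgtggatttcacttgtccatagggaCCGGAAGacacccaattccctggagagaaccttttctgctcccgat
The Ccr7 peak centre was chr11:99152361-99152660 on the minus strand, intronic with 0 Ccr7 exons under it, and held none of the motifs.
Ccr7 peak centre: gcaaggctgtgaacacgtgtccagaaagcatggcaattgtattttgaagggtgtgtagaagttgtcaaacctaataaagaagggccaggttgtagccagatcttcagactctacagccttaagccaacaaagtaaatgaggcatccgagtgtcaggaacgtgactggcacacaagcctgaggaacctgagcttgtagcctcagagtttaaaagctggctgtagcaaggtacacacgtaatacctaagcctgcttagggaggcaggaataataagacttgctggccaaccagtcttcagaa
The Lef1 peak centre was chr3:131182362-131182661 on the plus strand, intronic with 0 Lef1 exons under it, and held 1 KLF motif.
Lef1 peak centre: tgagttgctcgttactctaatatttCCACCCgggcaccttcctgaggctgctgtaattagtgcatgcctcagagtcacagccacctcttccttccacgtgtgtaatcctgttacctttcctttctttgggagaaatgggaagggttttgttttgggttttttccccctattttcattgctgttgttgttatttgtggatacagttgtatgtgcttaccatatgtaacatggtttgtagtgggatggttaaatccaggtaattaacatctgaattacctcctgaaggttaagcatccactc

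Motifs of factors that act in these cells were searched on both strands, and none contains another: FOXO (TGTTTAC), KLF (CCACCC), TCF/LEF (CTTTGAT or CTTTGAA), BACH/AP-1 (TGANTCA) and ETS (CCGGAAG). The RefSeq promoter table, with 250 bases before and 50 after each start, held 15 windows of 7 members (Klf2, Foxo1, Tcf7, Lef1, Satb1, Bach2 and Il7r). The KLF letters were in 8 of the 15 windows, those of Klf2, Lef1, Satb1 and Tcf7, beside 31.5% of all 32851 windows. The FOXO letters were in 1 window, of Tcf7, beside 3.65%, and the ETS letters in 2, of Bach2 and Tcf7, beside 8.86%. The TCF/LEF and BACH/AP-1 letters were in 0 of 15 windows, beside 8.65% and 7.81% of all windows. In the central 300 bases of the 175 member peaks, FOXO letters were found in 5.71% beside 3.59% of all peaks, KLF in 29.7% beside 27.7%, TCF/LEF in 10.9% beside 8.59%, BACH/AP-1 in 11.4% beside 8.77% and ETS in 2.29% beside 3.86%. Bach2 held 6 of the 10 member peaks with FOXO letters, 13 of the 19 with TCF/LEF letters and 11 of the 20 with BACH/AP-1 letters, in 67 peaks. The windows of 1 gene share sequence and are not independent, and a match is not a bound site.

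Satb1, on chr17:51736187-51833290 (minus strand), encodes a chromatin organizer needed early in Treg development. Its sum over 14 peaks was 1501 and 1495 normalized counts in Ctrl 1 and Ctrl 2 and 1164 and 1295 in KO 1 and KO 2. Both KO values were lower than either Ctrl value, and the 2 Ctrl libraries were nearly equal. The log2 fold change was -0.29 ± 0.14 (SE, n = 2 per group, 95% interval -0.56 to -0.01). It passed an unadjusted p under 0.05 by DESeq2 and by edgeR, and its adjusted p was 0.9998 by DESeq2 and 0.949 by edgeR. The log2 fold change was above 0 at 1 of its 14 peaks, beside 48.9% of all peaks, and below 0 at the other 13. At 4 of the 14 both KO values were under both Ctrl values, beside 16.1% of all peaks. These peaks were counted in the same 4 libraries and are not independent. Without any 1 library the log2 fold change of the sum lay between -0.36 and -0.21. The unadjusted DESeq2 call was lost in these 4 fits, each with 1 library in a group and with fewer of all genes passing.

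The peak of Satb1 with the most counts, chr17:51830376-51832390, lay in an intron 1289 bp past the principal start. It held 380.2 and 394.1 normalized counts in Ctrl against 272.1 and 252.1 in KO. The groups were separate there, with a log2 fold change of -0.56 ± 0.23 that passed an unadjusted p under 0.05 by DESeq2 and by edgeR (DESeq2 adjusted p = 1). Just before the start, the upstream peak chr17:51832998-51834366, which also lies over the unclassified transcript Gm6934 on the opposite strand, held 212 and 161.2 in Ctrl against 156.8 and 194.2 in KO. The groups overlapped at that peak, and its log2 fold change was -0.11 ± 0.29. With the intronic peak left out, the gene sum was 1130 and 1097 in Ctrl against 893.9 and 1039 in KO, with both KO values still the lower and a log2 fold change of -0.21 ± 0.15 that did not pass unadjusted.

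Klf2, on chr8:72319033-72321656 (plus strand), encodes the zinc finger factor of T cell quiescence and migration. A single peak of 7127 bp covered the whole gene and its flanks. It held 2374 and 2510 normalized counts in Ctrl against 2356 and 2302 in KO. Both KO values were lower than either Ctrl value, though KO 1 differed from Ctrl 1 by less than the 2 Ctrl libraries differed from each other. The log2 fold change was -0.07 ± 0.125 (95% interval -0.31 to 0.18).

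Foxo1, on chr3:52268336-52353221 (plus strand), encodes the factor that PI3K signals inactivate. Its 33 peaks held 6461 and 6033 normalized counts in Ctrl against 6471 and 6294 in KO, and the groups overlapped. The log2 fold change was 0.03 ± 0.115 (95% interval -0.19 to 0.26). The peak with the most counts spanned the start, chr3:52267417-52275727, and held 1949 and 1350 in Ctrl against 1938 and 1339 in KO. The libraries numbered 1 were higher at this peak in both groups, and its log2 fold change was -0.01 ± 0.23. Of the 17 Foxo1 peaks past the midpoint of the gene, 6 were higher in both KO than in both Ctrl libraries and 0 were lower, beside 16.2% and 16.1% of all peaks. The sum of these 17 peaks, 1564 and 1746 in Ctrl against 1588 and 1919 in KO, overlapped between the groups.

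Tcf7 and Lef1 encode the paired HMG-box factors TCF-1 and LEF-1 of naive and central T cells. Tcf7, on chr11:52252371-52283014 (minus strand), held 5874 and 5936 normalized counts over 12 peaks in Ctrl against 5909 and 5813 in KO. The 4 libraries were within a few percent of each other, with a log2 fold change of -0.01 ± 0.11 (95% interval -0.23 to 0.21). All 12 Tcf7 peaks also lay over an annotated non-coding gene (Gm26551 on the same strand or A630014C17Rik on the opposite one), and reads of CUT&Tag carry no strand. Its peak with the most counts, 8515 bp past the principal start, held 1574 and 1575 in Ctrl against 1494 and 1524 in KO. The peak over its start held 1612 and 1423 in Ctrl against 1616 and 1345 in KO, which overlapped.

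Lef1, on chr3:131110471-131224356 (plus strand), held 4519 and 4278 normalized counts over 39 peaks in Ctrl against 4501 and 3957 in KO. The groups overlapped, and the log2 fold change was -0.06 ± 0.12 (95% interval -0.30 to 0.19). Its peak with the most counts, 2078 bp past the start and over the antisense gene Gm43352, held 720.2 and 582.8 in Ctrl against 813.3 and 637 in KO. This peak overlapped between the groups, with a log2 fold change of 0.16 ± 0.22.

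Within Lef1 the single peaks spread more widely than in any other of the 9 genes, from -1.19 to 1.08 on the log2 scale. Both ends of that range were peaks of low counts, down to 10.2 normalized counts in KO 2. The intronic peak chr3:131182164-131182860, 72041 bp past the start, held 46.7 and 68.9 normalized counts in Ctrl against 36.8 and 10.2 in KO. Both KO libraries were lower, KO 2 by far the most, and the log2 fold change was -1.19 ± 0.59, which passed an unadjusted p under 0.05 by DESeq2 and by edgeR (DESeq2 adjusted p = 1). Without KO 2 it was -0.63 and without KO 1 it was -2.49. Another intronic peak, chr3:131194739-131194989, held 18.7 and 20.7 in Ctrl against 40.4 and 42.6 in KO, with a log2 fold change of 1.08 ± 0.58 that did not pass. Of the 21 Lef1 peaks past the midpoint of the gene, 10 were lower and 3 higher in both KO than in both Ctrl libraries, beside 16.1% and 16.2% of all peaks. The sum of these 21 peaks was 1992 and 1974 in Ctrl against 1899 and 1541 in KO, while that of the 18 peaks before the midpoint, 2636 and 2260 in Ctrl against 2630 and 2352 in KO, overlapped. Both KO sums past the midpoint of Lef1 were thus the lower. In the same split of the other genes with at least 4 peaks, both KO sums were also lower before the midpoint of Ccr7 and of Satb1, while the other sections overlapped with the size factors of the peaks, of the gene sums or of both. The split at the midpoint was chosen after the peak values were seen and was given no test.

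Bach2, on chr4:32238804-32586108 (plus strand), encodes a repressor that restrains effector differentiation. Its 67 peaks held 10850 and 10700 normalized counts in Ctrl against 10920 and 10500 in KO, with a log2 fold change of -0.01 ± 0.11 (95% interval -0.22 to 0.21). The groups overlapped, and the interval was among the narrowest of the 9. The peak with the most counts lay 11398 bp past the start and over Bach2it1, a transcript within its intron, and held 1860 and 1704 in Ctrl against 1817 and 1616 in KO. The peak nearest past the start held 1181 and 947.9 in Ctrl against 1144 and 950.4 in KO, so the groups overlapped there as well.

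**Figure D2:**
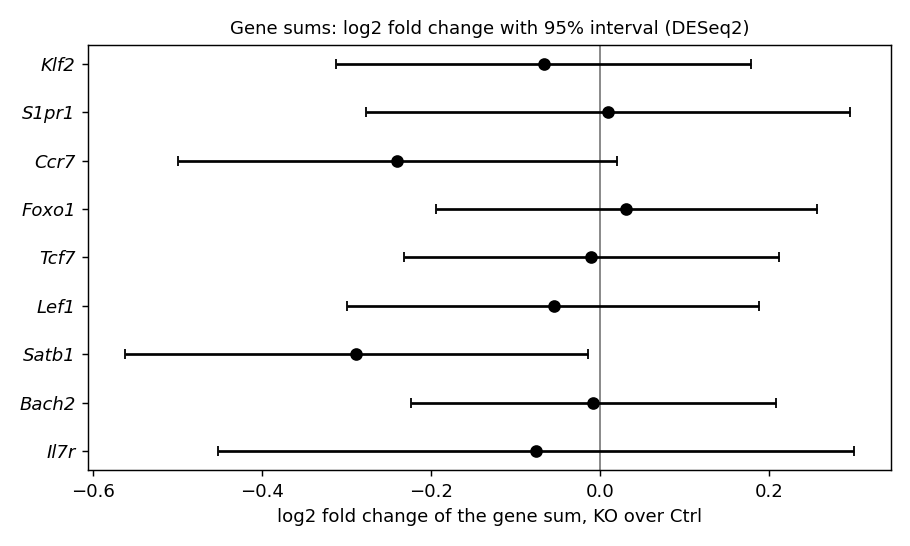
Log2 fold change of each gene sum, KO over Ctrl (x axis), with its 95% interval from DESeq2, for the 9 genes (y axis). The interval of Satb1, -0.56 to -0.01, lies below 0, that of Ccr7 ends at 0.02, and the other 7 span 0.

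Among the receptor genes, Ccr7, on chr11:99144196-99155077 (minus strand), encodes the chemokine receptor for entry into lymph nodes and T cell zones. Its 4 peaks held 2458 and 2755 normalized counts in Ctrl against 2102 and 2316 in KO. Both KO values were lower than either Ctrl value, with a log2 fold change of -0.24 ± 0.13 (95% interval -0.50 to 0.02). It passed an unadjusted p under 0.05 by edgeR but not by DESeq2, whose adjusted p was 0.9998. Most of the counts lay in 1 peak that spanned the start, chr11:99149520-99155503, which held 1724 and 1838 in Ctrl against 1380 and 1492 in KO. The groups were separate at that peak, with a log2 fold change of -0.31 ± 0.18 that also passed unadjusted by edgeR alone. Without it the sum was 775.5 and 898 in Ctrl against 730.9 and 799.8 in KO, with a log2 fold change of -0.13 ± 0.16. The groups overlapped by these values, while scaled by the size factors of the peak table the same 3 peaks summed to 794.3 and 888.6 in Ctrl against 735.5 and 786.9 in KO, both KO values being the lower.

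S1pr1, on chr3:115710433-115715072 (minus strand), encodes the sphingosine 1-phosphate receptor of lymphocyte egress. Its 2 peaks held 1154 and 1043 normalized counts in Ctrl against 1131 and 1080 in KO. The KO values lay between the Ctrl values, with a log2 fold change of 0.01 ± 0.15 (95% interval -0.28 to 0.30). The peak over the gene held 690.8 and 650.3 in Ctrl against 710 and 751.1 in KO, and the upstream peak, also over the non-coding gene Gm9889, held 491.7 and 381.7 in Ctrl against 428.4 and 311.7 in KO. The first was higher in both KO libraries and the second overlapped, and neither passed an unadjusted p under 0.05.

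Il7r, on chr15:9505788-9530176 (minus strand), encodes the IL-7 receptor alpha chain, which is lower on most Treg cells than on other CD4+ T cells. It held 746 and 572.2 normalized counts in Ctrl against 692.5 and 555.7 in KO over 3 peaks. The libraries numbered 1 were higher in both groups, and the groups overlapped. The log2 fold change was -0.08 ± 0.19 (95% interval -0.45 to 0.30), the widest interval of the 9. Its peak with the most counts, in an intron 1773 bp past the start, held 493.1 and 338.9 in Ctrl against 408.2 and 367.9 in KO, and the peak over its start held 184.7 and 147.4 in Ctrl against 183 and 115.8 in KO.

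Levels were set between genes only per kb of peak, as the mean normalized count per kb over the 4 libraries. On this scale Klf2 was the densest at 334.8 per kb, above 96.4% of all genes, followed by Tcf7 at 231, Ccr7 at 221.7 and S1pr1 at 207.8. Bach2 at 163.2, Foxo1 at 151.4, Il7r at 150.4 and Lef1 at 145.9 came next, and Satb1 was the lowest at 125.9, above 35.2% of all genes. The short genes were covered by peaks over most of their length, with 100% of Klf2, 90.4% of Ccr7 and 82.8% of S1pr1 under peaks. Tcf7 was covered over 80.9% and Foxo1 over 48% of its length, beside 25.2% of Lef1, 18.7% of Bach2, 15.1% of Il7r and 10% of Satb1. In Satb1 the longest stretch between neighbouring peaks was 23098 bp, and in Bach2 it was 52444 bp.

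Of the 175 member peaks, 157 had their midpoint in an intron, 7 in a coding exon, 2 in a UTR and 9 upstream. No member peak passed an adjusted p of 0.05 by DESeq2 (0 peaks, beside 0% of all peaks), and 2 passed an unadjusted p under 0.05, the Satb1 and Lef1 peaks described, both lower in KO, beside 1.53% of all peaks. By edgeR 4 peaks passed unadjusted, with a Ccr7 and a further Lef1 peak added, beside 3.63% of all peaks. The DESeq2 call of the Satb1 peak was not kept when any 1 library was left out, and that of the Lef1 peak was kept only without KO 1. These fits had 1 library in a group, and fewer of all peaks passed in them as well. Both KO libraries were above both Ctrl libraries at 19 peaks (10.9%, beside 16.2% of all peaks) and below at 29 peaks (16.6%, beside 16.1%). The median log2 fold change was -0.05 over the member peaks and -0.01 over all peaks, and 41.1% of member peaks lay above 0 beside 48.9% of all peaks. The SE of a single peak was 0.168 to 1.42 with a median of 0.403, so changes of the size of the Satb1 sum were not detectable in most single peaks.

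**Figure D3:**
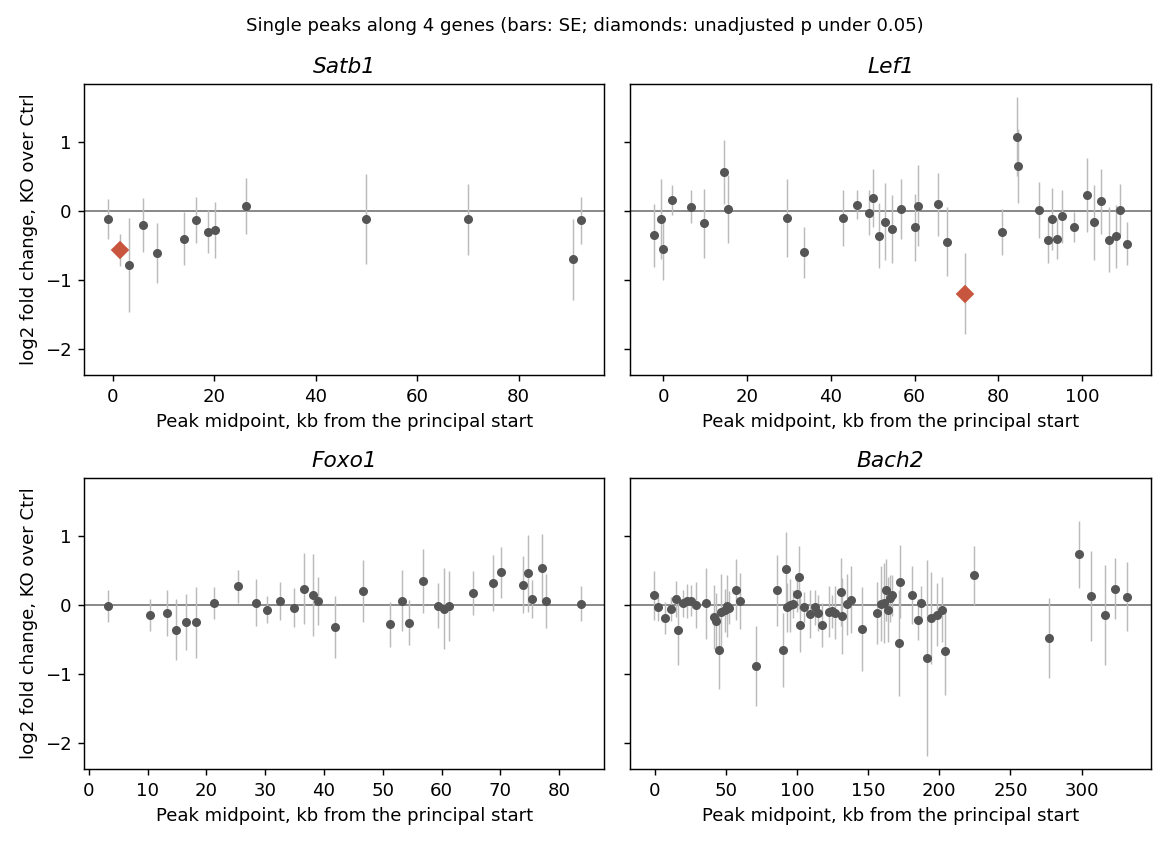
Log2 fold change, KO over Ctrl (y axis), of each peak of Satb1, Lef1, Foxo1 and Bach2 by the distance of its midpoint from the principal start (x axis, kb). Bars are SE and diamonds mark an unadjusted DESeq2 p under 0.05. At Satb1 1 of 14 peaks lies above 0, beside 48.9% of all peaks, and 1 diamond each falls in Satb1 and Lef1.

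Whether Pol II shifted between promoter and body within a gene was examined as the share of the counts of a gene in peaks whose midpoint lay within 3 kb of any of its annotated starts, taken within each library. The 6 members with both kinds of peak were compared by an exact permutation test, two-sided, which with 2 against 2 libraries cannot go below 0.3333. At Ccr7 the share was 68.5% and 67.4% in Ctrl against 65.2% and 65.5% in KO, a difference of -2.58 percentage points with no overlap (exact permutation p = 0.3333, adjusted p = 1). Any gene whose groups do not overlap gets that p, and the share of all genes without overlap is not given here. At Tcf7 it was 29.3% and 27.0% in Ctrl against 29.3% and 26.1% in KO, and at Bach2 33.1% and 30.3% in Ctrl against 32.4% and 29.9% in KO. Both genes overlapped between the groups, as did Lef1, with 20.5% and 17.2% in Ctrl against 22% and 19.0% in KO.

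Satb1 has several annotated starts, so that 12 of its 14 peaks counted as promoter. Its share was 95.9% and 94.9% in Ctrl against 95.9% and 93.5% in KO. With a limit of 1 kb, 6 peaks counted, and it was 54.3% and 52.7% in Ctrl against 51.1% and 50.1% in KO, a difference of -2.91 points with no overlap (exact permutation p = 0.3333). At that limit Tcf7 did not overlap either, with 1.12% and 1.10% in Ctrl against 0.909% and 0.774% in KO in its 1 such peak (exact permutation p = 0.3333), and S1pr1 overlapped, with 41.6% and 37.0% in Ctrl against 37.6% and 29.3% in KO. At Il7r the share was 88.7% and 85.9% in Ctrl against 84.8% and 88.5% in KO. At the limit of 3 kb the libraries numbered 1, the deeper ones, had the higher share in both groups at Tcf7, Lef1, Bach2 and Satb1. At the limit of 1 kb this held at Satb1, Tcf7, Lef1 and S1pr1, but not at Bach2 or Il7r. The median difference over the 4846 genes with both kinds of peak was -0.318 points.

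**Figure D4:**
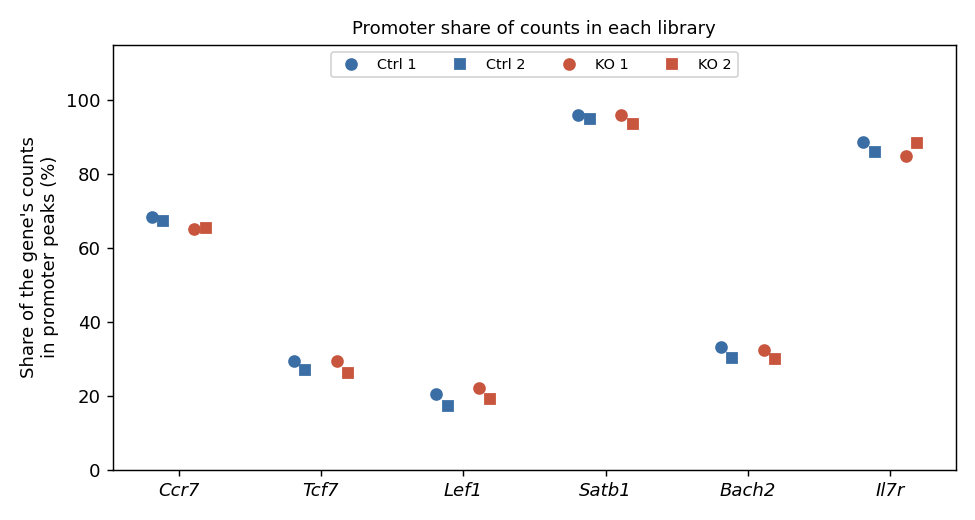
Share of the counts of a gene in promoter peaks (y axis, %, midpoint within 3 kb of an annotated start) in each library for 6 of the 9 genes (x axis). Colours mark Ctrl and KO, circles library 1 and squares library 2. Only at Ccr7 do the groups not overlap, with both KO points below both Ctrl points (exact permutation p = 0.3333, the smallest possible).

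Related genes of the same biology were read from 4 lists set by function. Of 12 other genes of entry into and exit from lymphoid tissue, all 12 had peaks, 1 was higher and 0 were lower in KO at an unadjusted DESeq2 p under 0.05, beside 2.88% of all genes in either direction. That gene was Ccr9, the receptor for homing to the small intestine, with 583.9 and 612.6 normalized counts in Ctrl against 756.3 and 770.3 in KO. Both KO libraries were higher, with a log2 fold change of 0.35 ± 0.16 that passed unadjusted by both tools (DESeq2 adjusted p = 0.9998). The DESeq2 call of Ccr9 was not kept when some single libraries were left out, in fits where fewer of all genes passed as well. The median of the list was 0.04 on the log2 scale.

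Of 22 further genes of naive and quiescent T cells, 20 had a peak (Btg1 and Dapl1 had none). At an unadjusted p under 0.05, 0 passed by DESeq2, beside 2.88% of all genes, and 1 passed by edgeR, beside 4.84%. That gene, Klf13, a KLF family factor, held 8345 and 9125 normalized counts in Ctrl against 7602 and 7580 in KO, for a log2 fold change of -0.20 ± 0.115. Both KO libraries were lower for Klf13 and both were higher for Foxp1, a forkhead factor of resting T cells, with 8181 and 8434 in Ctrl against 9227 and 9260 in KO (log2 fold change 0.15 ± 0.11). The median of the 20 was 0.03.

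Of 14 genes of the PI3K, AKT and mTOR pathway that acts on Foxo1, 14 had peaks. At an unadjusted p under 0.05, 0 passed by DESeq2, beside 2.88% of all genes, and 0 by edgeR, beside 4.84%. The median of the list was 0.05 on the log2 scale. Pik3cg, which encodes a PI3K catalytic subunit, held 301.1 and 291 normalized counts in Ctrl against 366.6 and 360.1 in KO (log2 fold change 0.295 ± 0.20).

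Of 25 effector Treg genes, 24 had a peak (Ccr2 had none), and 1 was higher and 2 were lower at an unadjusted DESeq2 p under 0.05, beside 2.88% of all genes in either direction. Tigit, an inhibitory receptor, held 2472 and 2079 normalized counts in Ctrl against 3001 and 2645 in KO, for a log2 fold change of 0.31 ± 0.14. Cd44, the adhesion receptor that rises on activated cells, held 440.7 and 509.6 in Ctrl against 333.6 and 339.3 in KO, for a log2 fold change of -0.495 ± 0.19. Il1rl1, the gene of the IL-33 receptor ST2, held 341.1 and 289.6 in Ctrl against 187.7 and 169.6 in KO, with a log2 fold change of -0.82 ± 0.235. None of the 3 passed adjustment over all genes (smallest adjusted p = 0.264), and 3 passed unadjusted by edgeR, beside 4.84% of all genes. The number of genes in the list past the unadjusted DESeq2 threshold changed when single libraries were left out, in fits where fewer of all genes passed. The median of the 24 was 0.12 on the log2 scale, and 16 of them lay above 0. Both KO libraries were higher for 8 of the 24 and lower for 2, beside the 17.4% and 16.9% of all genes.

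**Figure D5:**
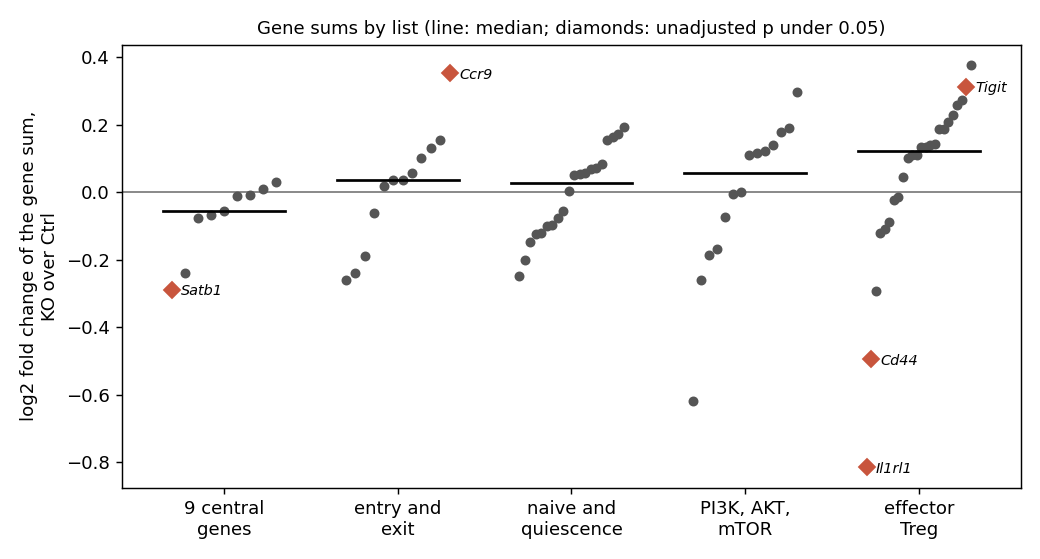
Log2 fold change of gene sums, KO over Ctrl (y axis), for the 9 central genes and the 4 lists (x axis). Each point is a gene, lines are list medians and diamonds mark an unadjusted DESeq2 p under 0.05. The medians are -0.06, 0.04, 0.03, 0.05 and 0.12 from left to right, and 5 genes carry a diamond: Satb1, Ccr9, Tigit, Cd44 and Il1rl1.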

How the data were processed

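Pol II CUT&Tag libraries of 2 Ctrl and 2 KO samples were analysed; a further IgG library of the series is not analysed here. The authors checked reads with FastQC, mapped them with Bowtie2 to mm10, kept uniquely mapped reads, removed duplicates, called peaks with MACS2 against IgG and merged the peaks with bedtools (versions not given in the sources used here). The deposited table holds raw read counts per merged peak, which the authors extracted with bedtools, with no normalization. All sample columns were matched to the labels (0 unmatched). Peaks were called on the libraries that were compared.

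Peaks were assigned by midpoint to protein-coding genes of GENCODE M21 (gene body and 3 kb upstream), or, with none, to long non-coding, immunoglobulin or T cell receptor genes. These fallback classes were picked to match the number of peaks with a gene in an earlier analysis (47507) and touch no peak of the 9 genes. Starts in the table count from 0 and are given from 1. Counts were summed per gene, and all 12947 genes and all 56615 peaks were fitted separately with the DESeq2 1.42.0 Wald test (R 4.3.3; size factors, a genotype term, two-sided, Benjamini-Hochberg adjustment over all features), the tool of the study. Normalized counts are counts divided by the size factor of the table, 0.578 to 1.69 for gene sums and 0.587 to 1.68 for peaks, so a gene with 1 peak has slightly different values in each. With edgeR 4.0.16, the quasi-likelihood test was the alternative. Shares were compared with Python 3.11.15.

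On simulated counts for the 12947 genes with 200 changed 2-fold, DESeq2 recovered 61.5% at an adjusted p under 0.05 with 6.82% of calls false, and edgeR 68% with 9.93% false. The changed genes were drawn from those above a minimum mean count, and the spread was that of the main fit. All 9 member sums changed by less than 2-fold, and recovery of such smaller changes was not simulated. All 9 members were named, with each peak of an unadjusted p under 0.05, the peak with the most counts and the peaks at the start. Of each list, genes with an unadjusted p under 0.05 were named, otherwise some of those with the smallest p; Setd2 and the peaks with a p just above the threshold were added after their values were seen, and a few listed genes are not reported here by name. The 9 members and the lists were chosen with earlier results of these data known. Intervals are 95% and come from the DESeq2 SE, in which the spread of a gene is drawn towards that of all genes. They are thus not the spread of the 2 libraries per group alone, and may leave out variation between mice. Alternatives were other scalings, a mean count of at least 10 (which removed 0 gene sums), subsets of peaks, a replicate block and leaving out each library.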

Additional observations from a re-analysis of the deposited data

How the results depend on the processing

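Of 125 alternative values of the 9 gene log2 fold changes, 15 changed sign and 110 kept their direction, and none crossed an adjusted p of 0.05. By edgeR 0 of all genes passed that adjusted threshold. At an unadjusted p of 0.05, 9 changed side, 6 of Satb1 and 3 of Ccr7. Klf2, Ccr7 and Satb1 stayed below 0 under every alternative run, Satb1 between -0.36 and -0.13 and Ccr7 between -0.32 and -0.13. Part of the 125 used the same counts as the main fit and could hardly differ from it. The filter on the mean count removed 0 gene sums, and unshared peaks kept every member peak (0 shared). Promoter peaks were all the peaks of Klf2 and S1pr1, and peaks outside the promoter were all those of Foxo1. The number of gene sums with an unadjusted p under 0.05 was 1 in the report, beside 2.88% of all genes. It was 2 by edgeR (4.84% of all genes) and 2 with the replicate block (4.55%). With promoter peaks only it was 2 of 8 (2.45%), and with peaks outside the promoter 0 of 7 (2.95%). These subsets are unlike, as 12 of the 14 Satb1 peaks counted as promoter. All 33 Foxo1 peaks, including the peak over its start, counted as outside. The number of member peaks that passed was 2 in the report (1.53% of all peaks) and 4 by edgeR (3.63%). With the replicate block 4.55% of all genes passed unadjusted in place of 2.88%. The count was then 3 for entry and exit genes, 3 for naive and quiescence genes and 6 for effector genes. By edgeR it was 1 for naive and quiescence genes, beside 4.84% of all genes. Fits without a library leave 1 in a group and passed fewer of all genes, and their counts are not given. No member with an adjusted p passed 0.05 under any alternative, and with the replicate block DESeq2 gave an adjusted p for 8 of the 9 gene sums and 58 of the 175 peaks. The labels number the libraries 1 and 2 in both groups but do not say that a number pairs them, and deviations from the group means correlated at 0.369 over gene sums and 0.233 over peaks. With the replicate block DESeq2 called 116 genes in place of 13 at an adjusted p under 0.05, with Ccr7 at an adjusted p of 0.0739 and Satb1 at 0.108.

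Signs changed for members near 0. S1pr1 gave -0.001 with unshared peaks and -0.061 to 0.088 without a library. Foxo1 gave -0.001 with peaks outside the promoter and -0.018 to 0.084 without a library. Both subsets held all peaks of the gene, as S1pr1 had 0 shared peaks and Foxo1 had 0 promoter peaks. Only the scaling and the fit over the other genes thus differed there. Total-count scaling gave 0.001 for Tcf7 and 0.004 for Bach2, and leaving out a library gave -0.023 to 0.002 for Tcf7 and -0.037 to 0.021 for Bach2. Lef1 gave 0.075 with promoter peaks only and -0.153 to 0.034 without a library, and Il7r 0.045 with peaks outside the promoter and -0.251 to 0.134. The cause of the other sign changes was not tested. Differences in promoter share without a library ran from -2.07 to 1.14 points for Tcf7, -0.0404 to 3.28 for Lef1, -1.93 to 0.51 for Satb1, -1.99 to 0.846 for Bach2 and -2.47 to 1.17 for Il7r, and from -3.1 to -2.06 for Ccr7. For Bach2 the difference was 0.117 with a limit of 1 kb and 0.13 for peaks touching the start. With 2 libraries per group, of which those numbered 2 were shallower, changes as small as those of the 9 sums could not be told from 0 at an adjusted threshold.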
